A study of Mus musculus with 107 samples.

Results

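4T1 and EMT6 are mouse mammary carcinoma cell lines, and their tumors were compared before any treatment. The comparison takes the 3 treatment-naive 4T1 tumors and the 3 treatment-naive EMT6 tumors of a series of 107 mouse tumors from 12 transplanted models, over all 50686 genes of the deposited expression table. The tumors were chosen by their sample labels and not by any measured value. Both cell lines were implanted under the skin of the right flank of female BALB/cAnNCrlCrlj mice aged 7 weeks, and these tumors were collected at about 100 mm3. A further 3 tumors of each model were taken from mice left untreated for longer, the NT (non-treatment) group of day 8, and they served as a second set for the same contrast. Each model is a single cell line in hosts of a single inbred strain, so that the spread between the 3 tumors of a model measures variation between tumors and not between breast cancer lines. The labels do not say that the 3 tumors came from separate experiments, and p-values therefore measure only the spread between these samples.

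The mammary gland is built of luminal cells, which line the duct and are held together by E-cadherin, claudins and simple keratins, and of basal cells, which rest on laminin. Carcinoma cells can lose these junctions and take on mesenchymal features, a change known as epithelial-mesenchymal transition (EMT), in which repressors of the Snail and Zeb families bind E-box sequences of epithelial genes. A transplanted tumor also holds host cells, such as macrophages, neutrophils, lymphocytes, vessels and fibroblasts, which tumor cells recruit through secreted ligands.

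Expression is given as TPM, a unit that corrects for transcript length and is scaled to the same total in each tumor. It keeps no sequencing depth, so that the depth behind a value is unknown. Differences are 4T1 minus EMT6 on the log2(TPM + 1) scale, with a positive value where 4T1 was higher, and ± is the standard error from limma with n = 3 tumors per model unless stated otherwise. This scale understates the difference of genes with low TPM. A gene is called where its Benjamini-Hochberg adjusted p was under 0.05. RNA of tumor and host cells was measured together, and fewer cells of a type and less RNA per cell cannot be told apart in such data.

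Before the results, 3 features of the samples matter. The class of small non-coding RNAs annotated as misc_RNA, of which Rn7s1 is the most abundant, took between 35.4% and 41.2% of TPM in 4T1 and between 32.4% and 33.6% in EMT6, and protein-coding genes took between 37.1% and 40.4% of TPM in 4T1 and between 43.5% and 45.9% in EMT6. 4T1 tumor 1 stood apart from the other 4T1 tumors by its interferon-γ-induced and adipocyte genes, and EMT6 tumor 3 had more RNA of muscle, blood and vessels than EMT6 tumors 1 and 2. Mitochondrial ribosomal RNA took 6.13%, 2.4% and 2.16% of TPM in 4T1 tumors 1, 2 and 3 and 3.04%, 2.39% and 4.08% in EMT6. Over the 16808 genes tested, the correlation of log2(TPM + 1) was between 0.938 and 0.953 for tumors of the same model and between 0.872 and 0.888 for tumors of different models.

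Of 16808 genes with a mean of at least 1 TPM, 1337 were called higher in 4T1 (7.95%) and 4080 higher in EMT6 (24.3%), which makes 32.2% in either direction. The TPM of the models did not overlap for 47.7% of genes tested. The median difference of all genes tested was -0.19, and the lower protein-coding share of 4T1 moved with it. After rescaling by the upper quartile this median was 0.01, and 50.9% of the calls were higher in 4T1 against 24.7% before. Leaving out abundant non-coding and mitochondrial RNAs gave 37.6% and a median of -0.09. Calls that were kept under both rescalings tried, by the upper quartile and after leaving out abundant non-coding RNAs, numbered 1337 for 4T1 and 2236 for EMT6 (13.3% of genes tested), and only calls for EMT6 are described below as kept under every scaling, since both rescalings shift the median difference toward 4T1 and no call for 4T1 was lost. Counts of list members are to be read against these shares, 7.95% for 4T1, 24.3% for EMT6 and 13.3% for EMT6 under every scaling, and a share near them does not set a list apart. With 1 tumor left out the share of all genes for EMT6 was 24% without 4T1 tumor 1 and between 16.9% and 20.9% without any other. In the NT tumors of day 8 the shares were 14.4% for 4T1 and 29.5% for EMT6, and 26.9% and 17.3% after upper-quartile rescaling. Large differences were more evenly split, with 196 genes called higher in 4T1 by more than 2 on the log2 scale and 253 called higher in EMT6 by as much.

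Epithelial identity genes separated the models most clearly. Of 25 members tested out of 30 in the list, 22 were called higher in 4T1 and 2 higher in EMT6, or 88% and 8%, against 7.95% and 24.3% of all genes tested. The median difference of the list was 2.43. The 5 members not tested, Grhl1, Ovol1, Ovol2, Ehf and Crb3, had a mean below 1 TPM.

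Cdh1, which encodes E-cadherin of adherens junctions (GRCm38 chr8:106603351-106670246), was measured at 36.3, 56.2 and 47.5 TPM in 4T1 and 3.28, 4.31 and 5.14 TPM in EMT6 (3.18 ± 0.20, adjusted p = 0.000105). Epcam, the epithelial cell adhesion molecule, had 50.8, 86.2 and 75.8 TPM in 4T1 and 1.47, 0.86 and 0.35 TPM in EMT6 (5.26 ± 0.27, adjusted p = 6.09e-05). The claudins Cldn3, Cldn4 and Cldn7, which seal tight junctions, were nearly absent from EMT6, with Cldn4 at 38.2, 46.2 and 47.5 TPM in 4T1 and 2.00, 0.04 and 0 TPM in EMT6 (4.94 ± 0.42, adjusted p = 0.000315). The lowest 4T1 tumor was above the highest EMT6 tumor in each of these genes.

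Keratins did not move as 1 group. Krt18, a simple keratin of luminal cells, had 311, 489 and 431 TPM in 4T1 and 13.6, 12.4 and 8.44 TPM in EMT6 (5.04 ± 0.22, adjusted p = 4.4e-05), while its usual partner Krt8 had 271, 418 and 355 TPM in 4T1 and 168, 204 and 168 TPM in EMT6 (0.93 ± 0.17, adjusted p = 0.00731). EMT6 thus held Krt8 RNA without a like level of Krt18, on the TPM scale that corrects for transcript length. Krt7 and Krt19 were also higher in 4T1, by 4.13 and 2.33 (adjusted p = 0.000115 and 0.00255).

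Regulators of the epithelial state were higher in 4T1 as well. Grhl2, a transcription factor of epithelial junction genes, had 9.60, 16.4 and 10.5 TPM in 4T1 and 0.25, 0.02 and 0.02 TPM in EMT6 (3.56 ± 0.23, adjusted p = 0.00011). Esrp1, a splicing factor that selects epithelial isoforms, had 12.01, 12.9 and 8.48 TPM in 4T1 and 0.27, 0.04 and 0 TPM in EMT6 (3.45 ± 0.20, adjusted p = 8.63e-05). Matriptase (St14), a membrane protease of epithelia, had 28.6, 38.3 and 33.4 TPM in 4T1 and 1.32, 0.42 and 0.81 TPM in EMT6 (4.24 ± 0.20, adjusted p = 4.82e-05), and its inhibitor Spint2 was higher by 2.29 (adjusted p = 4.28e-05). The remaining called members went against the list. Desmoplakin (Dsp), which anchors keratins to desmosomes, had 9.64, 15.99 and 11.97 TPM in 4T1 and 25.9, 32.2 and 23.2 TPM in EMT6 (-1.07 ± 0.20, adjusted p = 0.00747), and Cdh3 was higher in EMT6 at 1.58 to 1.67 TPM, a call that was lost after upper-quartile rescaling and without 4T1 tumor 1 or 2.

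**Figure D1:**
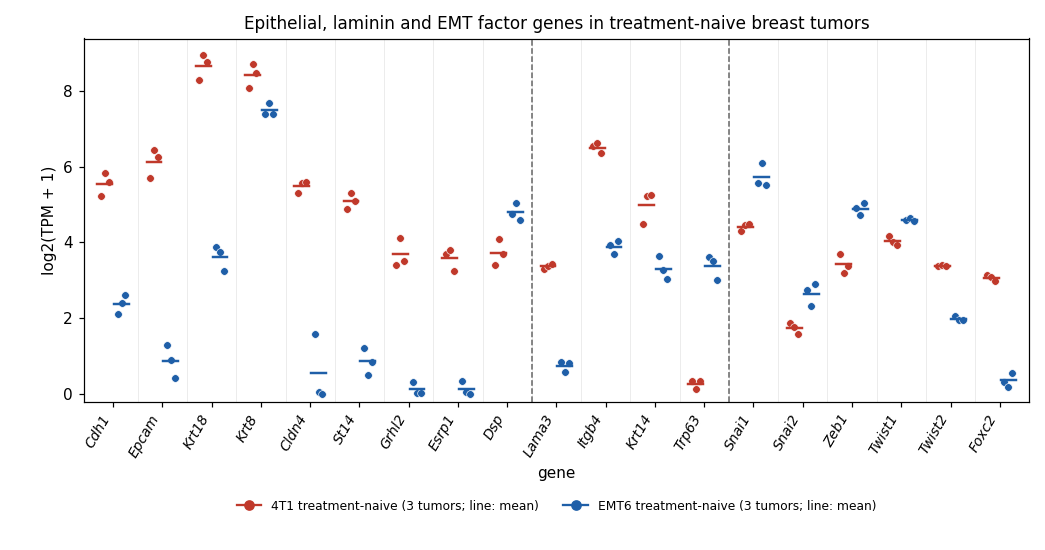
Level of epithelial genes (left), laminin, its receptor and basal genes (middle) and EMT transcription factors (right) as log2(TPM + 1) on the vertical axis, with 1 point per tumor and a line at the mean of the 3 tumors of each model. Most junction genes and the laminin gene Lama3 are higher in 4T1 with no overlap, while Dsp, Trp63, Snai1, Snai2, Zeb1 and Twist1 are higher in EMT6.

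RefSeq promoters of GRCm38.p6 were at hand for 20 of the 30 epithelial identity genes, with 26 start sites. The E-box letters CAGGTG or their reverse complement CACCTG, which Snail and Zeb factors can bind, were found on either strand in the 250 bases before 16 of these 26 start sites (61.5%), against 17.2% of 32851 promoters of the same length. The windows of Epcam, Cldn4 and Lsr, a receptor of tricellular junctions, are shown because these members had the largest difference among those with a match in a window lying before the whole annotated gene. They run 5′ to 3′ in the direction of the gene, with the E-box letters in capitals, and cover chr17:87635729-87635978 (plus strand), chr5:134946935-134947184 (minus strand) and chr7:30973470-30973719 (minus strand).
Epcam: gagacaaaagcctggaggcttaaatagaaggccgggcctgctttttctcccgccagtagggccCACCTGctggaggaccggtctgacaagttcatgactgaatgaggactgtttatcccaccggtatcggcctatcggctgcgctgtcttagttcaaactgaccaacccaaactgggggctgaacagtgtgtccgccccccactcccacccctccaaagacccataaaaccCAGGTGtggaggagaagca
Cldn4: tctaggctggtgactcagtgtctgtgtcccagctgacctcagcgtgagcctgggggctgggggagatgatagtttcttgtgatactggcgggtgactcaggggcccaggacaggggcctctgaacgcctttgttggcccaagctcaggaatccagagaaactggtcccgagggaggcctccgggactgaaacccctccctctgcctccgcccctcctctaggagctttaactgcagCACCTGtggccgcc
Lsr: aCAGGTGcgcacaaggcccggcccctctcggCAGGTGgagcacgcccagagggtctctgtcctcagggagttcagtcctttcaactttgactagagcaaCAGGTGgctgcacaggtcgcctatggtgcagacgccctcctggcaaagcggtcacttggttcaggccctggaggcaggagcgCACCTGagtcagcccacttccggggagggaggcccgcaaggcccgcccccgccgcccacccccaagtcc

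In the Epcam window the letters begin 187 and 19 bases before the start, in that of Cldn4 14 bases before it, and in that of Lsr at 249, 219, 151 and 69 bases. Lsr had 28.4, 38.1 and 29.2 TPM in 4T1 and 1.92, 1.67 and 3.02 TPM in EMT6 (3.37 ± 0.19, adjusted p = 7.92e-05). A match of letters is a description of the sequence and does not show binding. Dsp, the called member that went against the list under every scaling, had no match in its window, and neither did Cldn3 or Spint1, which were higher in 4T1.

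The EMT transcription factors did not all point one way. Snai1 (Snail) had 18.7, 20.99 and 21.2 TPM in 4T1 and 46.3, 67.1 and 44.4 TPM in EMT6 (-1.31 ± 0.17, adjusted p = 0.00155), and EMT6 had the highest mean of the 12 models. Zeb1 had 11.9, 8.17 and 9.37 TPM in 4T1 and 29.2, 25.3 and 31.7 TPM in EMT6 (-1.47 ± 0.15, adjusted p = 0.00069), and Snai2 (Slug) was higher in EMT6 by a difference of -0.91 (adjusted p = 0.0113). Foxc2, a forkhead factor of mesenchyme, was instead higher in 4T1 with 7.84, 7.42 and 6.89 TPM in 4T1 and 0.25, 0.13 and 0.48 TPM in EMT6 (2.71 ± 0.17, adjusted p = 9.87e-05), as was Twist2 (1.40 ± 0.10, adjusted p = 0.000196), while its paralog Twist1 was higher in EMT6 with 17.03, 15.1 and 14.4 TPM in 4T1 and 23.1, 24.1 and 22.7 TPM in EMT6 (-0.56 ± 0.09, adjusted p = 0.00476).

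Mesenchymal structural genes were high in both models. Vimentin (Vim) had 1405, 1632 and 1333 TPM in 4T1 and 1723, 1927 and 1794 TPM in EMT6 (-0.32 ± 0.12, adjusted p = 0.0812), and fibronectin (Fn1) had a difference of -0.10 (adjusted p = 0.516). S100a4, a calcium-binding protein of motile and stromal cells, had 299, 389 and 332 TPM in 4T1 and 813, 962 and 931 TPM in EMT6 (-1.41 ± 0.13, adjusted p = 0.000394). Tenascin C (Tnc) and the ecto-5'-nucleotidase Nt5e (CD73), which produces adenosine, were higher in 4T1, with Nt5e at 99.7, 70.6 and 82.2 TPM in 4T1 and 18.03, 19.2 and 18.7 TPM in EMT6 (2.10 ± 0.13, adjusted p = 0.000105). In all, of 19 members tested out of 20, 5 were called higher in 4T1 and 8 (42.1%) higher in EMT6, of which 6 were kept under every scaling. Vim RNA also comes from stromal and immune cells, whose part in these levels was not tested.

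Basal epithelial genes split into laminin chains with their receptor on the side of 4T1 and the transcription factor p63 on the side of EMT6. Lama3, a laminin chain of epithelial basement membranes, had 8.82, 9.44 and 9.77 TPM in 4T1 and 0.78, 0.50 and 0.75 TPM in EMT6 (2.63 ± 0.14, adjusted p = 6.09e-05). Lamb3, another such chain, had 14.7, 18.9 and 18.9 TPM in 4T1 and 2.10, 1.57 and 1.36 TPM in EMT6 (2.79 ± 0.16, adjusted p = 7.92e-05). The tumors of the models did not overlap in either chain. The integrin subunits Itgb4 and Itga6, which make up the laminin receptor of hemidesmosomes, were higher by 2.62 and 1.70 (adjusted p = 4.66e-05 and 0.000207).

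Trp63, which encodes p63 of basal cells, had 0.26, 0.10 and 0.26 TPM in 4T1 and 11.3, 10.4 and 7.04 TPM in EMT6 (-3.11 ± 0.20, adjusted p = 0.000115). The basal keratin Krt14 had 21.4, 36.3 and 36.8 TPM in 4T1 and 11.4, 8.65 and 7.14 TPM in EMT6 (1.67 ± 0.25, adjusted p = 0.0029), while its partner Krt5 was at or below 0.12 TPM in 5 of the 6 tumors and at 7.35 TPM in EMT6 tumor 1 alone. Of 16 members of this list, 10 were tested, 6 were called higher in 4T1 and Trp63 alone was called higher in EMT6.

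Among luminal genes, Gata3, a transcription factor of luminal identity, had 43.3, 69.5 and 69.9 TPM in 4T1 and 1.33, 1.88 and 1.86 TPM in EMT6 (4.50 ± 0.21, adjusted p = 4.56e-05), and 4T1 had the highest mean of the 12 models. The estrogen receptor gene Esr1 had 10.8, 7.22 and 5.49 TPM in 4T1 and 17.9, 18.1 and 13.2 TPM in EMT6 (-1.01 ± 0.24, adjusted p = 0.0178), and this call was lost on leaving out 4T1 tumor 2 or EMT6 tumor 1 or 2. Milk protein genes (Csn1s1, Csn2, Csn3, Wap and Lalba) had means below 1 TPM in both models and were not tested, and Elf5, a regulator of milk-secreting cells, was between 0 and 0.47 TPM. The mammary epithelial markers fixed for the label check were thus present in 4T1 except for Elf5, whereas in EMT6 Krt8 was high, Krt14, Krt18 and Cdh1 were low and Epcam, Elf5 and Gata3 were below 2 TPM. Of 8 luminal and secretory genes tested out of 20, 3 were called higher in 4T1, namely Gata3, Erbb3 and Areg, and Esr1 was called higher in EMT6.

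Receptor tyrosine kinases differed by family member. Fgfr2, the fibroblast growth factor receptor whose epithelial form answers to stromal ligands (GRCm38 chr7:130162451-133123350), had 77.2, 96.7 and 89.7 TPM in 4T1 and 0.27, 0.03 and 1.74 TPM in EMT6 (5.85 ± 0.35, adjusted p = 9.32e-05). The highest mean among the other 10 models was 16.9 TPM in RAG. Fgfr1, which is common in mesenchymal cells, had the reverse order with 32.9, 23.8 and 28.6 TPM in 4T1 and 92.8, 92.8 and 77.98 TPM in EMT6 (-1.60 ± 0.14, adjusted p = 0.000326). Met, the receptor of hepatocyte growth factor, had 18.4, 21.8 and 18.9 TPM in 4T1 and 51.9, 48.1 and 47.8 TPM in EMT6 (-1.29 ± 0.09, adjusted p = 0.000182), and Egfr was also higher in EMT6 by a difference of -1.04 (adjusted p = 0.00396). Erbb3 was higher in 4T1 at low levels of 2.13 to 2.25 TPM against 0.47 to 0.86 TPM.

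The Wnt ligand gene Wnt10b had 1.15, 1.06 and 1.30 TPM in 4T1 and 11.01, 10.1 and 7.31 TPM in EMT6 (-2.25 ± 0.17, adjusted p = 0.00021), and Axin2, a target and inhibitor of Wnt signaling, had 3.84, 3.01 and 3.07 TPM in 4T1 and 17.97, 20.3 and 20.7 TPM in EMT6 (-2.26 ± 0.12, adjusted p = 6.5e-05). The neural cell adhesion molecule Ncam1 had 3.85, 3.92 and 4.23 TPM in 4T1 and 60.1, 60.5 and 55.2 TPM in EMT6 (-3.57 ± 0.09, adjusted p = 1.26e-05). Of 17 oncogenes and receptor kinases tested out of 23, 2 were called higher in 4T1 (Erbb3 and Fgfr2) and 8 (47.1%) higher in EMT6, of which 7 were kept under every scaling.

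Genes of the p53 pathway and the Cdkn2 locus, which form 1 list, were mostly called higher in EMT6. Of 17 members tested, 12 (70.6%) were called higher in EMT6, 10 of them under every scaling, and 2 higher in 4T1, and the median difference was -0.82. Trp53 itself had 31.1, 33.9 and 32.6 TPM in 4T1 and 67.9, 71.3 and 62.6 TPM in EMT6 (-1.02 ± 0.08, adjusted p = 0.000274). Of its targets, the cell cycle inhibitor Cdkn1a (p21) had 22.9, 16.9 and 19.02 TPM in 4T1 and 39.8, 33.2 and 41.2 TPM in EMT6 (-0.93 ± 0.14, adjusted p = 0.00295), Phlda3 had 10.6, 10.01 and 8.95 TPM in 4T1 and 30.5, 31.7 and 36.8 TPM in EMT6 (-1.65 ± 0.11, adjusted p = 0.000126) and the pro-apoptotic gene Bax had 41.4, 38.9 and 39.3 TPM in 4T1 and 67.8, 71.6 and 73.8 TPM in EMT6 (-0.82 ± 0.07, adjusted p = 0.000431). Perp, a p53 target that is also a desmosomal protein of epithelia, went against the list with 18.1, 19.8 and 21.6 TPM in 4T1 and 11.7, 8.91 and 7.51 TPM in EMT6 (1.02 ± 0.16, adjusted p = 0.00377).

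At the Cdkn2 locus on chromosome 4, Cdkn2a, which encodes the tumor suppressors p16 and p19ARF (GRCm38 chr4:89274471-89294653), had 0.27, 0.31 and 0.31 TPM in 4T1 and 7.04, 8.92 and 7.88 TPM in EMT6 (-2.78 ± 0.15, adjusted p = 6.7e-05). Mtap, a purine salvage enzyme encoded next to it (GRCm38 chr4:89137122-89181081), had 142, 132 and 131 TPM in 4T1 and 36.9, 41.6 and 41.6 TPM in EMT6 (1.73 ± 0.08, adjusted p = 4.82e-05), and 4T1 had the highest Mtap mean of the 12 models. The neighboring inhibitor Cdkn2b was between 0.43 and 2.24 TPM in the 6 tumors and was not called (adjusted p = 0.129). Cdkn2a and Mtap, though neighbors, were called in opposite directions.

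The D-type cyclins differed from each other. Ccnd1 (cyclin D1) had 309.8, 313 and 275 TPM in 4T1 and 85.6, 83.1 and 78.5 TPM in EMT6 (1.85 ± 0.09, adjusted p = 4.61e-05) and Ccnd2 was higher in 4T1 by 1.19 (adjusted p = 0.00488), whereas Ccnd3 had 40.4, 39 and 37.6 TPM in 4T1 and 65.8, 60.5 and 71.6 TPM in EMT6 (-0.74 ± 0.09, adjusted p = 0.00121). Of 28 cell cycle genes, 5 were called higher in each model, with a list median of -0.10, and the proliferation marker Mki67 had a difference of 0.34 (adjusted p = 0.0767). After upper-quartile rescaling the calls were 11 higher in 4T1 (39.3%, against 13.8% of all genes) and 1 higher in EMT6 (3.57%, against 13.3%), so the split of this list depends on the scaling. Leaving out 1 tumor at a time gave 2 to 7 calls for EMT6, with 2 without EMT6 tumor 2 or 3. On day 8, 2 members were called higher in 4T1 (7.14%, against 14.4% of all genes) and 14 in EMT6 (50%, against 29.5%), and upper-quartile rescaling turned this into 4 (14.3%, against 26.9%) and 2 (7.14%, against 17.3%).

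**Figure D2:**
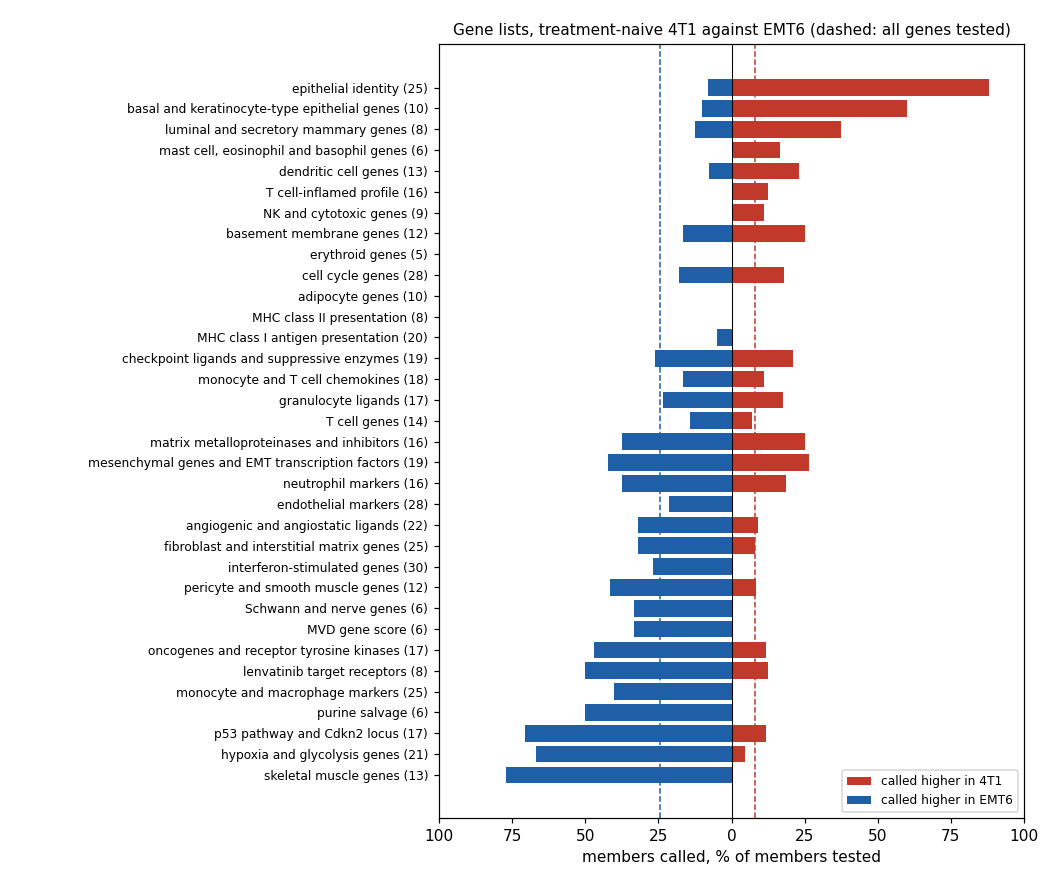
Share of the tested members of each of 34 gene lists called higher in 4T1 (bars to the right) or in EMT6 (bars to the left), in percent, with the number tested in brackets and lists under 5 tested members left out. Dashed lines mark the share of all genes tested, 7.95% for 4T1 and 24.3% for EMT6; the epithelial lists lie on the side of 4T1 and the skeletal muscle, hypoxia and p53 lists on that of EMT6.

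The 2 models differed in the level of some ligands for myeloid cells, while 10 of 17 granulocyte ligands tested were not called. Csf3 (G-CSF), the main growth factor of neutrophils, had 20.8, 18.9 and 23.04 TPM in 4T1 and 0.88, 2.37 and 0.58 TPM in EMT6 (3.34 ± 0.28, adjusted p = 0.000305), and the highest mean among the other 10 models was 7.65 TPM in KLN205. Csf1 (M-CSF), the growth factor of macrophages, had 49.1, 40.6 and 37.6 TPM in 4T1 and 136, 141 and 137 TPM in EMT6 (-1.69 ± 0.11, adjusted p = 0.000115), with the highest mean of the 12 models in EMT6. Cxcl5, a chemokine that attracts neutrophils through Cxcr2, had 3.97, 1.33 and 2.55 TPM in 4T1 and 23.2, 24.5 and 16.2 TPM in EMT6 (-2.67 ± 0.29, adjusted p = 0.000869). Il23a and Il1a were higher in 4T1, with Il23a at 6.58, 13.3 and 12.6 TPM in 4T1 and 0.12, 0.10 and 0.18 TPM in EMT6 (3.33 ± 0.26, adjusted p = 0.000233).

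Of 16 neutrophil markers tested out of 24, 3 were called higher in 4T1 (18.8%, against 7.95% of all genes) and 6 in EMT6 (37.5%, against 24.3%), 3 of the latter under every scaling (18.8%, against 13.3%). Leaving out 4T1 tumor 3 or any 1 EMT6 tumor also left 3 calls for EMT6. S100a8 had 18.5, 2.01 and 15.9 TPM in 4T1 and 36.9, 24.9 and 44.8 TPM in EMT6 (-1.83 ± 0.70, adjusted p = 0.0891), and the chemokine receptor Cxcr2 had 2.24, 1.30 and 2.24 TPM in 4T1 and 5.19, 3.91 and 5.04 TPM in EMT6 (-0.98 ± 0.19, adjusted p = 0.00966), while Ly6g, the defining marker of mouse neutrophils, was listed at 0 in 5 tumors and at 0.10 TPM in the other. S100a9 was called higher in EMT6 (-1.87 ± 0.57, adjusted p = 0.0455), a call that rescaling or leaving out 4T1 tumor 3 or any 1 EMT6 tumor removed.

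Padi4 and Lcn2 of the same list were far higher in 4T1. Padi4, an enzyme that citrullinates histones in neutrophil extracellular traps (GRCm38 chr4:140745865-140774236), had 126, 120.2 and 99.7 TPM in 4T1 and 1.21, 1.79 and 1.73 TPM in EMT6 (5.50 ± 0.14, adjusted p = 1.26e-05), and lipocalin 2 (Lcn2) had 88.8, 26.3 and 40.02 TPM in 4T1 and 4.59, 4.64 and 6.09 TPM in EMT6 (2.94 ± 0.41, adjusted p = 0.00223). Lcn2 is also made by epithelial cells, and which cells held this RNA was not tested. Among 17 granulocyte ligands tested out of 20, 3 were called higher in 4T1 (Csf3, Il1a and Il23a, 17.6%) and 4 in EMT6 (Csf1, Cxcl5, Cxcl2 and Tnf, 23.5%), 2 of the latter under every scaling (11.8%). The shares for EMT6 were near those of all genes, 24.3% and 13.3%.

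All called macrophage and monocyte markers were higher in EMT6 in treatment-naive tumors. Of 25 members, 10 were called higher in EMT6 (40%), 5 of them under every scaling (20%, against 13.3% of all genes), and 0 higher in 4T1. The summed level of these members overlapped between the models, at 2170, 2000 and 2060 TPM in 4T1 and 1680, 2020 and 2280 TPM in EMT6. Itgam (CD11b) had 23.9, 15.8 and 17.1 TPM in 4T1 and 35.3, 41.3 and 44.6 TPM in EMT6 (-1.07 ± 0.17, adjusted p = 0.00386), and Ccr2, the receptor of inflammatory monocytes, had 24.7, 13.6 and 14.7 TPM in 4T1 and 29.6, 37.2 and 43.5 TPM in EMT6 (-1.05 ± 0.24, adjusted p = 0.0176). Its ligand Ccl2 had 22.6, 11.96 and 17 TPM in 4T1 and 35.6, 47.5 and 61.2 TPM in EMT6 (-1.44 ± 0.27, adjusted p = 0.00747). The Csf1 receptor Csf1r had 49.2, 51.8 and 49.1 TPM in 4T1 and 61.4, 69.98 and 74.3 TPM in EMT6 (-0.44 ± 0.09, adjusted p = 0.0119), and this call was lost after upper-quartile rescaling. Without 4T1 tumor 1, 12 members were called higher in EMT6, and without 4T1 tumor 2 or 3 or EMT6 tumor 3 there were 6. Of 18 chemokines for monocytes and T cells, 3 were called higher in EMT6 (Ccl2, Ccl4 and Ccl12, 16.7%) and 2 in 4T1 (Ccl17 and Ccl22, 11.1%), near the shares of all genes.

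Among checkpoint ligands and suppressive enzymes, Ptgs2 (cyclooxygenase 2, an enzyme of prostaglandin synthesis) had 15.2, 8.11 and 11.6 TPM in 4T1 and 62.2, 63.9 and 47.7 TPM in EMT6 (-2.25 ± 0.22, adjusted p = 0.000582), and EMT6 had the highest mean of the 12 models. Ptges, the synthase of prostaglandin E2, had 17.1, 19.1 and 22.03 TPM in 4T1 and 48.3, 50.4 and 42.03 TPM in EMT6 (-1.23 ± 0.12, adjusted p = 0.000549). With Nt5e, Cd47, Tgfb1 and Pdcd1lg2 on the side of 4T1, this list had 4 members called higher in 4T1 (21.1%) and 5 in EMT6 (26.3%) among 19 tested. Without 4T1 tumor 1 these numbers were 2 and 9, and without 4T1 tumor 3 or EMT6 tumor 1 or 2 a single call for 4T1 was left.

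Of 22 angiogenic and angiostatic ligands tested out of 24, 2 were called higher in 4T1 (9.09%), 7 higher in EMT6 (31.8%) and 13 in neither direction, with a list median of -0.25 against -0.19 over all genes tested. All 7 calls for EMT6 were kept under every scaling, and upper-quartile rescaling gave 6 calls for 4T1. Vegfa, the main vascular growth factor (GRCm38 chr17:46016993-46032369), had 84.1, 42.5 and 77.1 TPM in 4T1 and 208, 178 and 176 TPM in EMT6 (-1.51 ± 0.25, adjusted p = 0.00482), and EMT6 had the highest mean of the 12 models. Angpt1, the ligand that stabilizes vessels through Tek, had 1.83, 1.40 and 1.52 TPM in 4T1 and 27.1, 29.3 and 22.5 TPM in EMT6 (-3.40 ± 0.14, adjusted p = 3.82e-05), against a highest mean of 5.20 TPM in LL/2 among the other 10 models. Vegfd had 2.89, 0.40 and 1.10 TPM in 4T1 and 14.3, 15.2 and 16.6 TPM in EMT6 (-2.86 ± 0.35, adjusted p = 0.00132).

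Thrombospondin 1 (Thbs1), an inhibitor of vessel growth, had 58.4, 39.6 and 41.5 TPM in 4T1 and 210.5, 221 and 191 TPM in EMT6 (-2.15 ± 0.16, adjusted p = 0.00018), and semaphorin 3A (Sema3a, GRCm38 chr5:13125414-13602565), a repellent of axons and endothelial cells, had 3.46, 1.56 and 1.95 TPM in 4T1 and 144, 135 and 124 TPM in EMT6 (-5.39 ± 0.20, adjusted p = 3.2e-05). Apelin (Apln) and Pdgfb, which attracts pericytes, were higher in 4T1, by 1.13 and 0.64 (adjusted p = 0.00853 and 0.0147). Without EMT6 tumor 1 or 2 a single ligand called higher in 4T1 was left.

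Of 28 endothelial markers, 6 were called higher in EMT6 (21.4%, against 24.3% of all genes), 2 of them (Kdr and Gpihbp1) under every scaling (7.14%, against 13.3%), and none higher in 4T1, against 7.95%. Leaving out 4T1 tumor 2 or 3 or EMT6 tumor 3 left 3 or 4 of the 6. Pecam1 (CD31) had 28.8, 23.3 and 37.1 TPM in 4T1 and 25.03, 30.2 and 47.5 TPM in EMT6 (-0.17 ± 0.26, adjusted p = 0.652), and Cdh5 (VE-cadherin) had 16.8, 20.6 and 21.7 TPM in 4T1 and 19.97, 22 and 33.3 TPM in EMT6 (-0.31 ± 0.20, adjusted p = 0.290). Kdr, the main VEGF receptor, had 5.79, 4.57 and 4.60 TPM in 4T1 and 9.80, 8.90 and 14.3 TPM in EMT6 (-0.98 ± 0.19, adjusted p = 0.00839). The MVD (microvessel density) gene score averages log2(TPM + 1) of Tek, Kdr, Cdh5, Eng, Sparcl1 and Pcdh12 and was 3.33, 3.36 and 3.36 in 4T1 and 3.43, 3.43 and 4.18 in EMT6. The difference was -0.33, with a pooled within-model SD of 0.31, and -0.08 without EMT6 tumor 3. On day 8 the score was 3.07, 3.23 and 3.28 in 4T1 and 2.60, 2.91 and 3.38 in EMT6, so that the models overlapped and the difference of 0.23 (pooled SD 0.29) had the opposite sign. Of 27 endothelial markers tested on day 8, 1 was called higher in 4T1 and 1 in EMT6.

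The receptors inhibited by lenvatinib differed in kind. Besides Fgfr2 in 4T1 and Fgfr1 in EMT6, Pdgfra had 25.7, 28.8 and 26.6 TPM in 4T1 and 45.9, 46.2 and 40.9 TPM in EMT6 (-0.69 ± 0.09, adjusted p = 0.00165) and Flt4 was called higher in EMT6 at 2.38 to 2.90 TPM against 1.27 to 1.40 TPM, a call lost after upper-quartile rescaling. Kdr, Flt4, Fgfr1 and Pdgfra made up the 4 receptors called higher in EMT6 among 8 tested. Flt1, Fgfr3 and Kit were not called, and Fgfr4 and Ret had means below 1 TPM. On day 8, 1 of 8 receptors was called higher in EMT6 and 1 in 4T1.

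**Figure D3:**
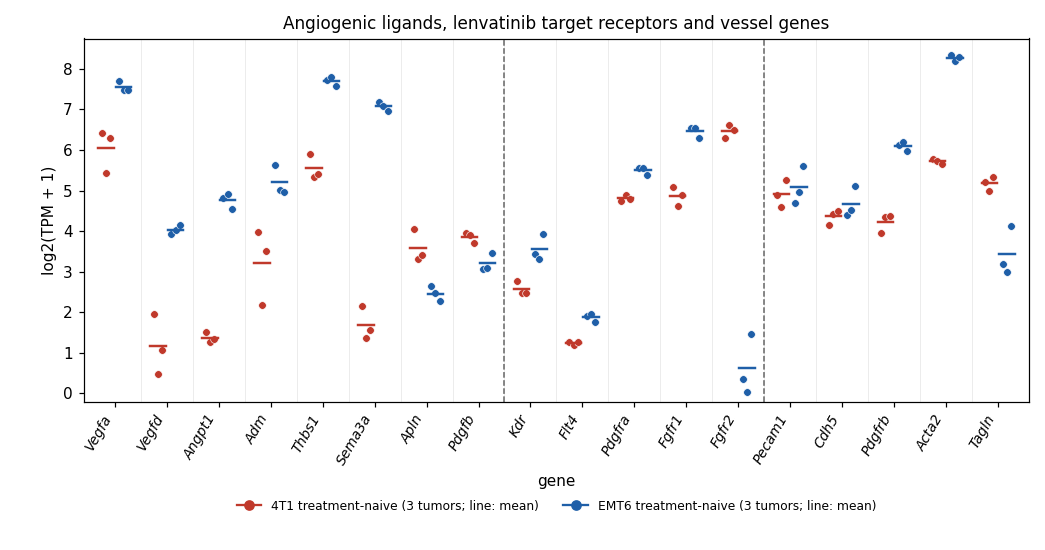
Level of vessel ligands (left), lenvatinib target receptors (middle) and endothelial and mural genes (right) as log2(TPM + 1) on the vertical axis, with 1 point per tumor and a line at the mean of each model. Sema3a, Angpt1 and Fgfr2 show the widest gaps between the models, while the points of Pecam1 and Cdh5 overlap.

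Mural and matrix genes were mixed. Acta2, smooth muscle actin of pericytes and myofibroblasts, had 54.3, 51.9 and 48.9 TPM in 4T1 and 321, 293 and 310.4 TPM in EMT6 (-2.55 ± 0.08, adjusted p = 2.5e-05), with the highest mean of the 12 models in EMT6. Pdgfrb, the receptor of pericytes and fibroblasts, had 14.5, 19.4 and 19.7 TPM in 4T1 and 68.7, 71.9 and 61.6 TPM in EMT6 (-1.87 ± 0.14, adjusted p = 0.000175). Transgelin (Tagln), an actin-binding protein of smooth muscle, had the reverse order with 36.3, 30.5 and 39.4 TPM in 4T1 and 8.17, 6.91 and 16.5 TPM in EMT6 (1.74 ± 0.29, adjusted p = 0.00506). The pericyte marker Rgs5 was not called (-0.75 ± 0.36, adjusted p = 0.157). Of 12 members tested, 5 (41.7%) were called higher in EMT6 and Tagln alone in 4T1.

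Collagen genes differed by chain. Col1a2 had 542, 407 and 529 TPM in 4T1 and 1237, 1183 and 1265 TPM in EMT6 (-1.33 ± 0.13, adjusted p = 0.000549), while Col1a1, the other chain of collagen I, had 922, 783 and 789 TPM in 4T1 and 973, 885 and 1111 TPM in EMT6 (-0.25 ± 0.12, adjusted p = 0.173). Col6a1 and Col6a2 were higher in EMT6 (-1.05 and -1.44) and Col6a3, the third chain of the same collagen, was higher in 4T1 (1.11), with adjusted p of 0.00397, 0.000325 and 0.00813. Cthrc1, a secreted protein of activated fibroblasts, had 14.8, 10.03 and 10.3 TPM in 4T1 and 103, 121 and 112 TPM in EMT6 (-3.17 ± 0.15, adjusted p = 4.85e-05). The fibroblast markers Dcn and Lum were not called (adjusted p = 0.387 and 0.849).

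In the basement membrane list, the laminin α5 chain Lama5 had 77.8, 109 and 90.3 TPM in 4T1 and 6.48, 5.62 and 8.18 TPM in EMT6 (3.59 ± 0.17, adjusted p = 4.61e-05). Its list had 3 members called higher in 4T1 (Lama5, Lamc1 and Lamb1, 25%) and 2 in EMT6 (Col4a5 and Nid2, 16.7%) among 12 tested. Of the metalloproteinases, which cut matrix proteins, Mmp10 had 7.62, 9.02 and 10.5 TPM in 4T1 and 0.47, 0.30 and 0.47 TPM in EMT6 (2.82 ± 0.16, adjusted p = 8.41e-05), Mmp13 had 20.2, 12.8 and 20.7 TPM in 4T1 and 2.83, 3.02 and 2.77 TPM in EMT6 (2.26 ± 0.19, adjusted p = 0.000293) and Mmp3 was higher in 4T1 by 1.51 (adjusted p = 0.0129). Mmp2, which is typical of fibroblasts, was higher in EMT6 with 44.1, 36.7 and 44.3 TPM in 4T1 and 87.4, 99.8 and 94.7 TPM in EMT6 (-1.16 ± 0.10, adjusted p = 0.000394). Of 16 metalloproteinases, inhibitors and related proteases tested, 4 were called higher in 4T1 (25%) and 6 in EMT6 (37.5%), 3 of the latter under every scaling. Of 25 fibroblast and matrix genes, 2 were called higher in 4T1 (8%) and 8 in EMT6 (32%), 5 of the latter under every scaling.

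Interferon-γ target and MHC class I genes gave different counts with and without 4T1 tumor 1. Cxcl9, a chemokine for T cells, had 47.9, 0.63 and 1.19 TPM in 4T1 and 21.5, 16.3 and 1.38 TPM in EMT6 (-0.80 ± 1.45, adjusted p = 0.710). Tumor 1 was above every EMT6 tumor and tumors 2 and 3 were below them, so that the groups overlapped.

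Over all 6 tumors, 1 of 20 genes of MHC class I presentation was called higher in EMT6, the chaperone gene Calr. Without 4T1 tumor 1, 19 of the 20 were called higher in EMT6 and none in 4T1, against 24% and 7.18% of all 16748 genes in that fit. That tumor was set apart by its interferon-γ-induced genes, and interferon-γ also induces class I genes. Counts and p-values without it thus follow a choice made on the same kind of values and are no separate test. β2-microglobulin (B2m) had 1048, 456 and 485 TPM in 4T1 and 950.3, 1170.4 and 944 TPM in EMT6, with a difference of -0.72, adjusted p = 0.128 over all tumors and -1.11, adjusted p = 0.00256 without that tumor. The peptide transporter gene Tap1 had 80.02, 17.4 and 15.3 TPM in 4T1 and 58.4, 55.6 and 40.5 TPM in EMT6, with -0.84, adjusted p = 0.324 and -1.58, adjusted p = 0.0021. Gbp2, a guanylate-binding protein induced by interferon-γ, had 89.05, 10.4 and 10.6 TPM in 4T1 and 120.0, 129.8 and 70.1 TPM in EMT6, with -2.19, adjusted p = 0.0787 and -3.17, adjusted p = 0.000846. H2 genes share sequence, so that reads could be split between them.

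Of 30 interferon-stimulated genes, 8 were called higher in EMT6 (26.7%) and 4 under every scaling (13.3%), which are the shares of all genes tested or close to them (24.3% and 13.3%). The number was 20 without 4T1 tumor 1, which was itself set apart by such genes, and 3 or 4 without any 1 of the other tumors. None was called higher in 4T1. The antiviral genes Oasl1 (8.20, 7.69 and 7.24 TPM in 4T1 and 18.4, 12.98 and 16.2 TPM in EMT6) and Rsad2 did not overlap between the models even with tumor 1 (-0.94 ± 0.14, adjusted p = 0.00289 for Oasl1 and -0.96 ± 0.17, adjusted p = 0.007 for Rsad2).

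MHC class II genes mark antigen-presenting cells. Cd74, the invariant chain, had 659, 236 and 189 TPM in 4T1 and 146, 129 and 190.4 TPM in EMT6 (1.01 ± 0.45, adjusted p = 0.135), and 0 of 8 members tested were called in either direction, with a list median of 0.83. Without 4T1 tumor 1 the difference of Cd74 was 0.46, adjusted p = 0.120, and that of H2-Aa, a class II chain, went from 0.95, adjusted p = 0.201 to 0.33, adjusted p = 0.249. On day 8 all 8 were called higher in 4T1, against 14.4% of all genes, with Cd74 at 447, 552 and 448 TPM in 4T1 and 178, 106 and 129 TPM in EMT6 (1.83 ± 0.20, adjusted p = 0.000376), and 16 of 20 class I genes (80%, against 29.5%) were called higher in EMT6, with B2m at 582, 762 and 851 TPM in 4T1 and 1932, 1699 and 1654 TPM in EMT6 (-1.28 ± 0.16, adjusted p = 0.000705). On day 8, which does not include 4T1 tumor 1, class I and class II calls thus lay on opposite sides, and after upper-quartile rescaling they numbered 12 for EMT6 (60%, against 17.3% of all genes) and 8 for 4T1 (100%, against 26.9%).

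T cell RNA was low in both models. Cd3e had 2.92, 1.44 and 4.53 TPM in 4T1 and 1.36, 1.47 and 1.70 TPM in EMT6 (0.58 ± 0.30, adjusted p = 0.188), Cd8a had 1.88, 0.19 and 0.10 TPM in 4T1 and 0.23, 0.48 and 0.23 TPM in EMT6, below the filter. Tigit, an inhibitory receptor of T and NK cells, had 11.01, 12.3 and 14.2 TPM in 4T1 and 1.25, 1.42 and 2.71 TPM in EMT6 (2.30 ± 0.21, adjusted p = 0.000454). It was the 1 gene called higher in 4T1 among 14 T cell genes tested out of 24 (7.14%), and Lck and Tcf7 were called higher in EMT6 (14.3%). Of 9 NK and cytotoxic genes tested out of 20, 1 (Gzme, 11.1%) was called higher in 4T1. Of 13 dendritic cell genes, 3 were (Batf3, Itgae and Ccl22, 23.1%) against Fscn1 in EMT6 (7.69%). No B or plasma cell gene was called among 4 tested. Mcpt8 of basophils was higher in 4T1, the 1 call among 6 mast cell, eosinophil and basophil genes tested (16.7%). Over all genes the shares were 7.95% for 4T1 and 24.3% for EMT6, and these lists rest on few genes. The mean log2(TPM + 1) of the 18 genes of the T cell-inflamed profile was 4.21, 2.98 and 3.03 in 4T1 and 3.17, 3.27 and 3.09 in EMT6. The difference was 0.23, with a pooled within-model SD of 0.49, and -0.17 without 4T1 tumor 1. On day 8 it was 0.22, with 3.20, 3.54 and 3.28 in 4T1 and 3.22, 3.01 and 3.13 in EMT6. Of its 16 genes tested, 2 were called, Tigit and Pdcd1lg2, both higher in 4T1.

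**Figure D4:**
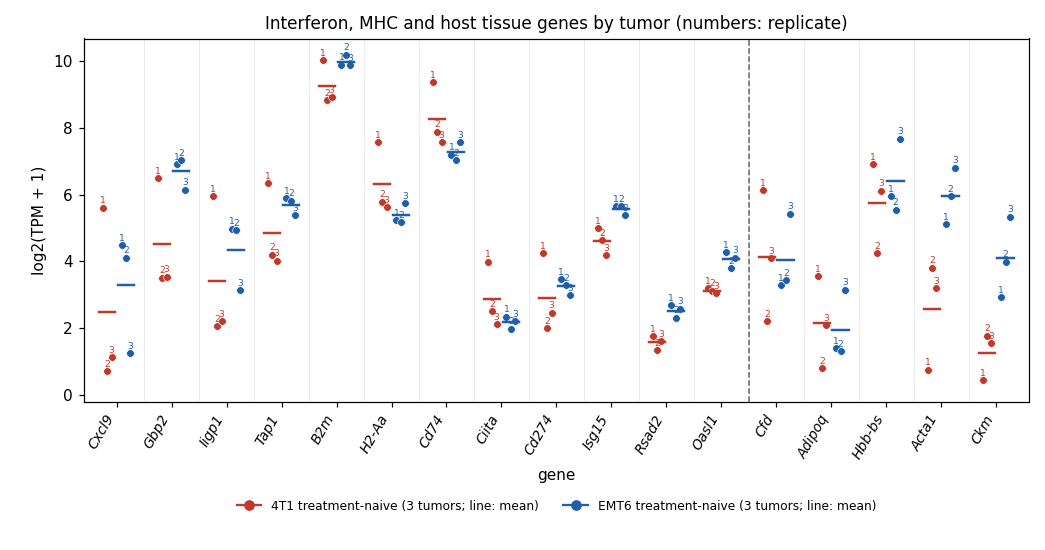
Interferon, MHC and checkpoint genes (left) and adipocyte, blood and muscle genes (right) as log2(TPM + 1) on the vertical axis, with each tumor marked by its replicate number and a line at the mean of each model. 4T1 tumor 1 lies above 4T1 tumors 2 and 3 for Cxcl9, Gbp2 and Cd74, and EMT6 tumor 3 holds the highest Hbb-bs, Acta1 and Ckm.

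Over all 6 tumors most hypoxia and glycolysis genes were called higher in EMT6, a count that rescaling or leaving out a tumor changed. Of 21 members tested, 14 (66.7%) were called higher in EMT6, 6 of them under every scaling (28.6%, against 13.3% of all genes), and 1 higher in 4T1. The number for EMT6 was 18 without 4T1 tumor 1 (85.7%, against 24% of all genes) and between 5 and 8 without any 1 of the other tumors (23.8% to 38.1%, against 16.9% to 20.9%). Slc16a3, the lactate exporter MCT4, had 32.5, 12.7 and 18.01 TPM in 4T1 and 99.03, 87.9 and 96.5 TPM in EMT6 (-2.21 ± 0.30, adjusted p = 0.00212). Pgk1 had 204, 120.2 and 153 TPM in 4T1 and 344, 345 and 343 TPM in EMT6 (-1.14 ± 0.18, adjusted p = 0.00412), and Pdk1, which keeps pyruvate from mitochondria, had 18.8, 7.37 and 11.2 TPM in 4T1 and 36.97, 27.7 and 31.3 TPM in EMT6 (-1.38 ± 0.30, adjusted p = 0.0141). Egln3, an oxygen sensor that hypoxia induces, went the other way with 34.4, 27.7 and 35.2 TPM in 4T1 and 14.1, 11.8 and 13.9 TPM in EMT6 (1.22 ± 0.12, adjusted p = 0.00066). On day 8, 19 of the 21 genes were called higher in EMT6 (90.5%, against 29.5% of all genes), and 14 after upper-quartile rescaling (66.7%, against 17.3%).

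Skeletal muscle genes were mostly called higher in EMT6. Of 13 skeletal muscle genes, 10 (76.9%) were called higher in EMT6, with Acta1 at 0.69, 13 and 8.16 TPM in 4T1 and 33.6, 61.2 and 111 TPM in EMT6 (-3.37 ± 0.81, adjusted p = 0.0205) and the creatine kinase Ckm at 0.36, 2.43 and 1.93 TPM in 4T1 and 6.62, 14.9 and 39.4 TPM in EMT6 (-2.83 ± 0.63, adjusted p = 0.0153). Without EMT6 tumor 2, 6 members were called. The summed level of the list was 37, 103 and 83.8 TPM in 4T1 and 109, 201 and 381 TPM in EMT6. On day 8, 4 of 11 members tested were called higher in EMT6 (36.4%, against 29.5% of all genes) and 2 in 4T1, Tnni2 and Tnnt3 of fast muscle, which were not called in the treatment-naive tumors. Adipocyte genes summed to 259, 32.9 and 94.1 TPM in 4T1 and 73.9, 66.2 and 213 TPM in EMT6, with the highest value in 4T1 tumor 1, and hemoglobin and other erythroid genes to 321, 67 and 202 TPM in 4T1 and 166, 130.0 and 589 TPM in EMT6. No member of the adipocyte and erythroid lists was called. Cornified skin markers Krt1, Krt2, Lor and Flg were listed at 0 in all 6 tumors, and 2 of the 12 skin genes were tested, with no call. Of 6 Schwann and nerve genes tested, Ncam1 and Pmp22 were called higher in EMT6, and of 6 purine salvage genes, Hprt, Aprt and Xdh were. The part of RNA from muscle, fat, blood and nerve in the differences above was not tested.

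Among genes chosen by size alone, 12 on each side were taken from those called at both times with no overlap between the treatment-naive tumors and at least 10 TPM in the higher model. On the side of 4T1 they included Fgfr2, Padi4, Epcam, Krt18 and Cldn4, given above. Tns4 (tensin 4), an adaptor of focal adhesions, had 91.8, 81.5 and 79.4 TPM in 4T1 and 0.70, 0.89 and 0.48 TPM in EMT6 (5.66 ± 0.12, adjusted p = 1.26e-05). The epithelial serine proteases Tmprss11e and Prss22 had differences of 4.67 and 4.58 (adjusted p = 2.61e-05 and 1.44e-05), with all EMT6 tumors at or below 0.64 TPM. A further 3 were small nuclear RNAs. Rnu11 of the minor spliceosome had 52.9, 81.1 and 52.8 TPM in 4T1 and was listed at 0 in every EMT6 tumor, and the U1 copies Rnu1b1 and Rnu1b2 carried the same values and cannot be told apart.

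On the side of EMT6 the largest difference was that of Crabp2, a retinoic acid-binding protein, with 1.43, 0.78 and 4.04 TPM in 4T1 and 229, 279 and 238 TPM in EMT6 (-6.48 ± 0.36, adjusted p = 7.41e-05). Sema3a followed, and then osteoglycin (Ogn), a proteoglycan of connective tissue, with 6.06, 1.28 and 2.36 TPM in 4T1 and 126, 132 and 105 TPM in EMT6 (-5.01 ± 0.38, adjusted p = 0.000213). Il1rl1, the receptor of interleukin 33, had 2.77, 1.62 and 3.16 TPM in 4T1 and 101, 93.7 and 79.9 TPM in EMT6 (-4.74 ± 0.19, adjusted p = 3.85e-05). Gli1, a transcription factor and target of Hedgehog signaling, had 0.42, 0.54 and 0.66 TPM in 4T1 and 23.8, 21.7 and 18.5 TPM in EMT6 (-3.85 ± 0.14, adjusted p = 2.91e-05), with the highest mean of the 12 models. The others were Sema3c, Wdr66, Lgals7 (galectin 7), Gstm1, a glutathione transferase, Dynap, the homeobox gene Prrx2 and AC125149.1, which was listed at 0 in every 4T1 tumor, and their differences ranged from -4.91 for Wdr66 to -3.90 for Prrx2.

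Hox genes, which record position along the body axis, split by cluster. Of 39 in the table, 21 were tested, 7 were called higher in 4T1 and 4 higher in EMT6. All 7 belong to the Hoxa cluster, with 9 tested, and 3 of the 4 higher in EMT6 to the Hoxc cluster, with 4 tested. Hoxa10 had 8.46, 9.41 and 8.78 TPM in 4T1 and 1.99, 1.45 and 1.39 TPM in EMT6 (1.93 ± 0.14, adjusted p = 0.000167) and Hoxa5 had 30.97, 33.1 and 27.97 TPM in 4T1 and 9.53, 8.23 and 7.59 TPM in EMT6 (1.75 ± 0.11, adjusted p = 0.000119), and Hoxa3 and Hoxa2 were higher in 4T1 by 1.68 and 1.39 (adjusted p = 0.000207 and 0.00178). Hoxc6 was higher in EMT6 with 5.23, 3.46 and 5.24 TPM in 4T1 and 13.6, 8.61 and 9.84 TPM in EMT6 (-1.04 ± 0.21, adjusted p = 0.0098). None of the Hoxb and Hoxd genes tested was called.

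The same contrast in the NT tumors of day 8, which share no tumor with the comparison above, gave 2315 genes higher in 4T1 (14.4% of 16038 tested) and 4727 higher in EMT6 (29.5%), or 43.9% in either direction. Protein-coding genes took between 40.5% and 46.8% of TPM in 4T1 and between 57.2% and 61.0% in EMT6 on that day, and 32.9% of the calls were higher in 4T1 against 60.8% after upper-quartile rescaling. Of the 1337 genes called higher in 4T1 in the treatment-naive tumors, 1033 (77.3%) were called in the same direction on day 8 and 7 in the other. Of the 4080 called higher in EMT6, 3037 (74.4%) were called in the same direction and 14 in the other. Conversely, 44.6% of the day 8 calls for 4T1 and 64.2% of those for EMT6 had been called in the treatment-naive tumors. All 22 epithelial identity genes higher in treatment-naive 4T1 were called higher in 4T1 again, as were Fgfr2 (6.47 ± 0.16, adjusted p = 1.67e-06), Csf3 (3.77 ± 0.18, adjusted p = 1.53e-05), Sema3a (-6.21 ± 0.12, adjusted p = 7.14e-07) and Vegfa (-2.43 ± 0.16, adjusted p = 5.66e-05).

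The counts of some lists differed between the times. Over all genes tested, the share called went from 7.95% to 14.4% for 4T1 and from 24.3% to 29.5% for EMT6. Of 25 macrophage and monocyte genes tested in treatment-naive tumors, 10 were called higher in EMT6 and none in 4T1. Of 23 tested on day 8, 1 was called higher in EMT6 and 8 in 4T1, and the latter were 5 to 9 with 1 tumor left out. Calls for EMT6 went from 6 of 28 to 1 of 27 for endothelial markers and from 4 of 8 to 1 of 8 for lenvatinib target receptors. For skeletal muscle genes they went from 10 of 13 to 4 of 11. The 6 endothelial calls (21.4%) were already near the share of all genes. For no member of these 4 lists was the change of the difference between the times itself called. Areg (amphiregulin), a ligand of Egfr, was called higher in 4T1 in treatment-naive tumors (0.75 ± 0.23, adjusted p = 0.0488, a call lost in several alternatives) and higher in EMT6 on day 8 (-0.93 ± 0.20, adjusted p = 0.00865). The difference between the times was itself called for 43 of 16555 genes (0.26%), with 3075 at an unadjusted p under 0.05 and between 3 and 128 calls when 1 of the 12 tumors was left out (3 without 4T1 NT tumor 1, 128 without EMT6 NT tumor 4), and Areg was not among them. Among the genes named here, Tigit, Dynap and Plaur were.

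**Figure D5:**
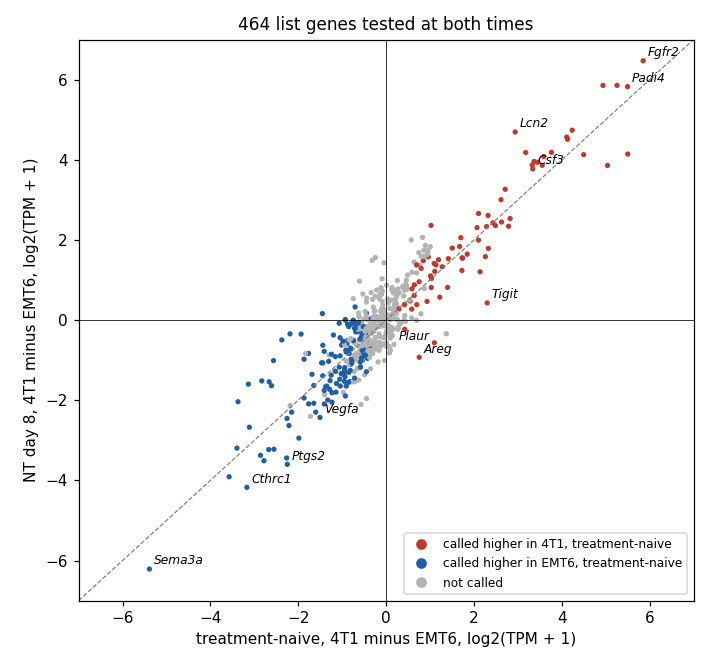
Difference between 4T1 and EMT6 in treatment-naive tumors (horizontal axis) and in NT tumors of day 8 (vertical axis), both as log2(TPM + 1), for the 464 list genes tested at both times, with 1 point per gene colored by its call in the treatment-naive tumors and a dashed line where both are equal. Most called genes lie on the same side of 0 at both times, and Areg lies on opposite sides.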

How the data were processed

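Tumor RNA was depleted of ribosomal RNA and sequenced on NovaSeq 6000 or NextSeq 550 instruments, and the sources used here do not say which tumor was run on which. Per the labels and the study's methods, the authors trimmed reads with Trimmomatic 0.36 after FastQC 0.11.5, aligned them with STAR 2.5.2b to mm10 (GRCm38) with Ensembl 88 genes, and estimated expression with RSEM 1.2.31. The deposited values are TPM per gene, which sum to between 999999 and 1000001 in each tumor and give no depth, so that the precision rests on the 3 tumors per model.

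From these values log2(TPM + 1) was tested with limma 3.58.1 (R 4.3.3, eBayes with trend) for every gene whose mean reached 1 TPM, with Benjamini-Hochberg adjustment over all of them and a threshold of 0.05. The fit was tested on simulated data first. Groups were taken from the sample titles. Replicate numbers recur in both models, but deviations of same-numbered tumors correlated at 0.008, 0.047 and 0.016, so the tumors were not treated as pairs. The alternatives were a pseudocount of 0.1, no filter or a minimum of 5 TPM, rescaling of TPM by the upper quartile or without abundant non-coding and mitochondrial RNAs, no trend, a replicate block, a spread shared with all 12 models, and leaving out each tumor in turn. A fit without both 4T1 tumor 1 and EMT6 tumor 3 was added after the data were seen.

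The 36 gene lists hold 620 different genes, of which 497 were tested and 3 were not in the table, and the members and lists were chosen with earlier results of these data known. Itgam has more than 1 row, and the row with the higher level was used. Named genes are defining list members, those with the largest change and those called against their list, the 12 genes per side with the largest difference that were also called in the same direction on day 8, and the 4 Hox genes with the largest change, to which Hoxc6 was added after its values were seen. Gene positions are from GENCODE M21 (GRCm38), and promoters from RefSeq. A few genes are not reported here.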

Additional observations from a re-analysis of the deposited data

Results flagged for a closer look

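The difference between 4T1 and EMT6 changed between treatment-naive tumors and NT tumors of day 8 for 43 of 16555 genes by the interaction of model and time in limma, with 12 tumors. Among the genes named above these were Dynap, Plaur and Tigit. For Dynap the difference moved by -2.23 (adjusted p = 0.00537), from -4.13 in treatment-naive tumors to -6.36 on day 8. Plaur, the receptor of urokinase, moved by -0.79 (adjusted p = 0.0261), with 58.6, 64.4 and 59.8 TPM in treatment-naive 4T1 and 54.9, 52.7 and 53.5 TPM in treatment-naive EMT6, and with 51.9, 55.1 and 57.0 TPM in 4T1 and 91.0, 80.4 and 80.3 TPM in EMT6 on day 8. Tigit moved by -1.87 (adjusted p = 0.0261), and was at 5.23, 5.36 and 4.63 TPM in 4T1 and 3.61, 3.45 and 3.45 TPM in EMT6 on day 8.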

How the results depend on the processing

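In treatment-naive tumors upper-quartile rescaling gave 2314 genes higher in 4T1 and 2236 higher in EMT6, and on day 8 it gave 4322 and 2791. On day 8 the number higher in 4T1 was 1488 with a minimum of 5 TPM and 3852 after rescaling without abundant non-coding and mitochondrial RNAs. With the replicate block the counts were 1132 and 3474 in treatment-naive tumors and 1364 and 2528 on day 8. Leaving out 1 tumor at a time gave 971 to 1202 genes higher in 4T1 and 2841 to 4020 higher in EMT6 in treatment-naive tumors, and 1731 to 2332 and 3800 to 4349 on day 8. The number of genes whose difference changed between the times was 141 with a minimum of 5 TPM, 198 after upper-quartile rescaling, 206 after rescaling without abundant RNAs, 1159 with the spread shared with all models, and 3 to 128 with 1 tumor left out. The cause of these changes was not tested. Without both 4T1 tumor 1 and EMT6 tumor 3, treatment-naive tumors gave 1073 and 2995 genes. Neither score had a settled difference. That of the T cell-inflamed profile was 0.23 and turned to -0.17 without 4T1 tumor 1. That of the MVD score was -0.33 and moved to -0.08 without EMT6 tumor 3. The same tumors widen the pooled SD (0.49 and 0.31), which is therefore no separate measure of the size of these moves. Depth is unknown for TPM, which limits statements on genes near 0.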
